A study of Mus musculus with 12 samples.

Results

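Enterocytes were compared with Lgr5-high stem cells of the adult mouse small intestine by the H3K4me3 peak list of each library. The comparison used 4 of the 12 samples of the study, 2 libraries of enterocytes and 2 of stem cells. All peaks of the 4 lists on the 19 autosomes were merged where they overlapped or touched, which gave 19091 regions. The same merging over all 8 libraries with a list, embryonic ones included, gave 23602. Both groups came from 2-month-old (P60) male mice carrying the Lgr5EGFP-Cre-ERT reporter, named for the Lgr5 promoter, on a mixed C57BL/6 CD1 background. Stem cells were sorted as Lgr5-EGFP-high cells, and enterocytes as EpCAM+CD31-CD45-DAPI- cells, a gate for living epithelium that by itself does not part enterocytes from other epithelial cells. Each chromatin preparation started from 250000 fixed and sorted cells. The labels describe the collection of villi and of crypts without tying the enterocytes to either, and whether a library pools several animals is not stated. EpCAM+ epithelium from E12.5 and E14.5 embryos of the same strain, 2 libraries each, entered only to estimate the spread and as values set beside the adult ones. The libraries of a group are biological duplicates per the design text, and p-values measure only the spread between these libraries.

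H3K4me3 is histone H3 trimethylated at lysine 4, a mark laid down mainly by SET1 and MLL complexes around the starts of genes that are active or ready to be. Broad stretches of it often lie over genes that define a cell's identity. Lgr5 marks the stem cells at the crypt base, whose daughters move up onto the villus and become absorptive enterocytes, the cells that digest and take up sugars, fats, peptides and sterols.

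The promoters of 4 genes whose regions set the groups apart are shown to let the loci be read at base level. Olfm4 encodes a secreted glycoprotein of crypt-base stem cells, Npc1l1 the cholesterol transporter of the brush border, Alpi intestinal alkaline phosphatase, and Lct the milk-sugar enzyme lactase. Each sequence is the 250 bases before the RefSeq transcription start in GRCm38.p6, read 5′ to 3′ on the gene's strand. Capitals mark matches on either strand to TATAA, the core of a TATA box, to TTTAT, the core of caudal homeobox (CDX) sites, and to CAAAGTCCA, a form of the HNF4 site. The Olfm4 stretch is chr14:80000052-80000301 (plus strand), that of Npc1l1 chr11:6230246-6230495 (minus), that of Alpi chr1:87101607-87101856 (minus) and that of Lct chr1:128328319-128328568 (minus). These are GRCm38.p6 positions, whereas every other position given here is on mm9, the build of the peak lists, so the 2 sets of coordinates cannot be set against each other.
Olfm4: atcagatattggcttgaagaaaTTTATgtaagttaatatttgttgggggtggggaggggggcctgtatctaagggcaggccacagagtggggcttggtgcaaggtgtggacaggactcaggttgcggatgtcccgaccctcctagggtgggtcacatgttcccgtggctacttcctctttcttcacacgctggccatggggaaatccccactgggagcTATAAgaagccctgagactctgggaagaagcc
Npc1l1: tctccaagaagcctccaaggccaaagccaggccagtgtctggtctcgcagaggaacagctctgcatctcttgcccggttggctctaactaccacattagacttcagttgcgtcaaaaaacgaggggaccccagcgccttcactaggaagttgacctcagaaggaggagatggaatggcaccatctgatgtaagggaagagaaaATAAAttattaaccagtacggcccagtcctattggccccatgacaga
Alpi: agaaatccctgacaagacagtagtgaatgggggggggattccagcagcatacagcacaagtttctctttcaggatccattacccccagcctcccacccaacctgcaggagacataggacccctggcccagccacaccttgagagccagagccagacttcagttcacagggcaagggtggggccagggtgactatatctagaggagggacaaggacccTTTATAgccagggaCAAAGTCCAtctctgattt
Lct: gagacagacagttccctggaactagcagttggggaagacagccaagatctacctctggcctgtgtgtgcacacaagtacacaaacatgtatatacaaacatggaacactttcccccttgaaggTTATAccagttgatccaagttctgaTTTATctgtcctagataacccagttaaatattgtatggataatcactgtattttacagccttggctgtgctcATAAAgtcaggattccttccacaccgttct

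A TATAA match stood in the Olfm4, Alpi and Lct stretches and in 22.8% of the 31396 autosomal promoters of the same length. A TTTAT match stood in all 4, with 2 in Lct, and in 37.1% of promoters. In Alpi the TTTAT match overlapped the TATAA match on the other strand. The HNF4 form was found in Alpi alone among the 4 and in 0.4% of promoters. Promoters in general held a median of 6 CpG (quartiles 2 to 16). Npc1l1 held 6 CpG, Olfm4 4, Lct 1 and Alpi 0, and 92.4% of promoters held more CpG than Alpi. These matches describe letters, not occupied sites.

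Marker loci were read first. No mm9 annotation was at hand, so 11 marker genes were placed from general knowledge of their mm9 starts, after the lists had been seen. The planned markers Smoc2, Fabp1 and Sis were not placed, and Lct and Vil1 were not among those planned. The loci below are thus a selected set. All other regions are named by position. At Olfm4 (chr14:80399966-80407772) the stem-cell libraries had peaks covering 6075 and 7807 bp and the enterocyte libraries had none. This was the widest region called in both stem-cell libraries and neither enterocyte library. Its peak ranked 17 and 14 by length in the stem-cell lists. At Slc12a2 (chr18:58037407-58043175), the basolateral sodium-potassium-chloride transporter of crypt cells, stem cells had 5769 and 5602 bp and enterocytes 379 and 1710 bp. The groups did not overlap, and the shorter domain in enterocytes passed the test described below (adjusted p = 0.042) but not with the adult libraries alone (0.15). At the start of Lgr5 (chr10:115021732-115025494), the R-spondin receptor, stem cells had 3287 and 3034 bp and enterocytes 0 and 222 bp. The E14.5 libraries had 2624 and 2611 bp there and the E12.5 libraries, whose lists were weaker throughout, 0 and 1592 bp. At Ascl2 (chr7:150152727-150155217), a transcription factor of stem cells, stem cells had 1677 and 2491 bp, enterocytes 0 and 794 bp, and the E14.5 libraries 1811 and 2114 bp. Each E14.5 library thus had a peak at both loci. The adult groups did not overlap at Lgr5 or Ascl2, and neither passed the test, with adjusted p = 0.10 and 0.091.

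The enterocyte loci gave the opposite order. At Npc1l1 (chr11:6123145-6131777) the enterocyte libraries had 6861 and 8633 bp, their peaks ranking 15 and 10 by length, and the stem-cell libraries 0 and 949 bp. The difference passed the test with 8 libraries (adjusted p = 0.02) and not with 4 (0.13). No embryonic library had a peak there, so the 8-library value is too low, for the reason given with the test. Alpi (chr1:88994323-88998353) had 2531 and 4031 bp in enterocytes and no peak in either stem-cell library. Apoa4 (chr9:46048765-46051666), an apolipoprotein of chylomicrons, had 2161 and 2902 bp against none. Lct (chr1:130218982-130224943) had 2763 and 5913 bp against none. Lists that showed Alpi, Apoa4 and Lct in both enterocyte libraries thus lacked them in both stem-cell libraries. Vil1 (chr1:74455007-74462725), the actin bundler of microvilli, had a peak in all 4 libraries, at 7346 and 7719 bp in enterocytes and 2599 and 2861 bp in stem cells. The log2 difference in scaled covered bp was 1.41 ± 0.08 (SE, adjusted p = 0.0008), and with the 4 adult libraries alone the adjusted p was 0.055. Epcam (chr17:88035115-88042485), the antigen of the gate, had 7335 and 6594 bp in enterocytes and 4414 and 5198 bp in stem cells, a log2 difference of 0.53 ± 0.14 (SE) that did not pass (adjusted p = 0.072). No peak of any of the 4 lists lay over Ptprc, which encodes CD45, the leukocyte antigen that the gate selects against. Since these loci were placed after the lists had been seen, their values are a description of the groups.

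**Figure D1:**
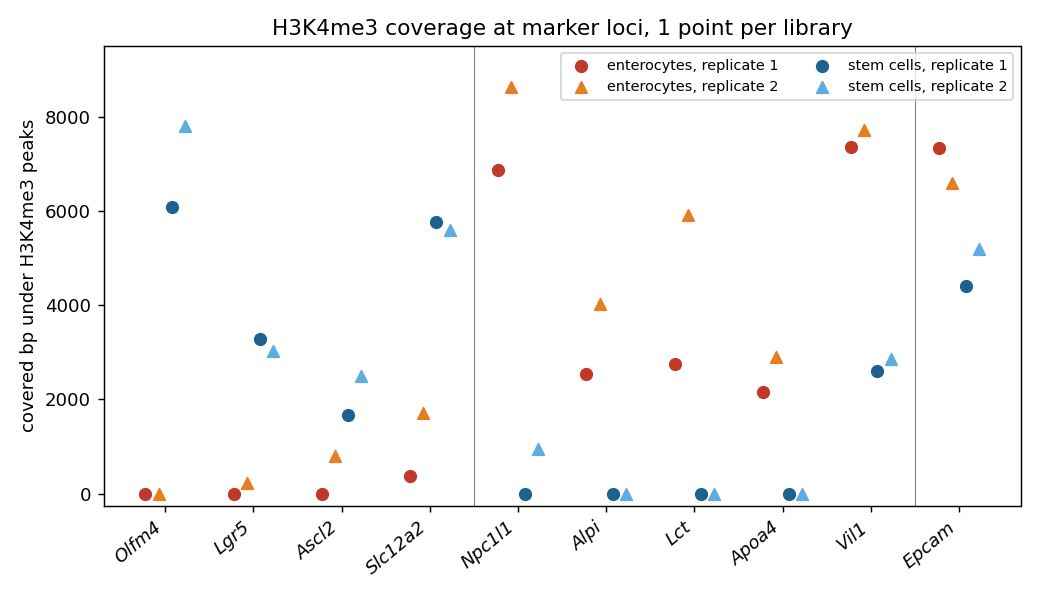
Covered bp under H3K4me3 peaks (linear y axis) at 10 marker loci, 1 point per library, with stem-cell markers at the left, enterocyte markers in the middle and Epcam at the right. Circles are replicate 1 and triangles replicate 2; at Olfm4 the stem-cell libraries stand at 6075 and 7807 bp and both enterocyte libraries at 0, and at Npc1l1 the enterocyte libraries stand at 6861 and 8633 bp.

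The 4 libraries differed in depth by replicate number. After filtering, the 2 libraries numbered 1 had 12821255 (enterocytes) and 13355462 tags (stem cells), and those numbered 2 had 22137910 and 25547814. The input held 28191210 tags for enterocytes and 41589417 for stem cells, a difference that cannot be told apart from cell type. The authors' lists held 11650, 17007, 13213 and 15617 peaks for enterocytes 1 and 2 and stem cells 1 and 2. Of all peaks of the replicate 1 lists, sex chromosomes included, 97.8% (enterocytes) and 96.2% (stem cells) overlapped a peak of the same group's other list. For the replicate 2 lists the shares were 66.7% and 80.8%. A region missing from a list was therefore only not called at that depth. Covered bp reports how far a domain was called, and fewer cells with the mark cannot be told apart from less mark per cell.

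Most of the H3K4me3 landscape was shared. Of the 19091 regions, 10098 were called in all 4 libraries, and 13903 in at least 2. Regions called in both enterocyte libraries and neither stem-cell library, named gained here for the direction from stem cell to enterocyte, numbered 412, or 2.16% of all regions. Regions called in both stem-cell libraries and neither enterocyte library, named lost, numbered 508, or 2.66%. Split by replicate number in place of cell type, 893 regions (4.68%) were called in both libraries numbered 2 and neither numbered 1, and 3 (0.0157%) the other way. Cell type thus separated 920 regions without overlap and replicate number 896. The remaining crossed splits held 11 and 19 regions. Another 426 regions had peaks in both enterocyte libraries and 1 stem-cell library, and 1533 in both stem-cell libraries and 1 enterocyte library. Of those 1533, 1499 were missing only from enterocyte replicate 1, the shallowest library. Without that library, and so with 1 condition fewer, the gained count was 3493. With every list held to 11650 peaks, taken by q, the gained count was 557, the lost count 567 and the replicate split 166. The near equality of the cell-type and replicate splits thus held for the full lists and not for lists of equal length.

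The classes differed in width. Gained regions had a median of 774.5 bp over their calling libraries (quartiles 442.5 to 1495.75), lost regions 496.25 bp (330.875 to 705.25), and regions called only in the libraries numbered 2 had 429 bp (296 to 592.5). At a mean of at least 1000 bp there were 153 gained, 51 lost and 39 replicate 2 regions. At 2000 bp there were 62, 9 and 2, and at 3000 bp 20, 3 and 0. This order of the full lists turned among peaks with −log10 q of at least 10, where 91 regions of at least 2000 bp were gained, 12 lost and 369 split by replicate number. The median −log10 q of a list was 9.40 and 9.46 in the libraries numbered 1 and 21.5 and 21.4 in those numbered 2. At 4000 bp gained and lost stood at 3 each. The same lists were also read within each replicate number, at like depth. Regions of at least 2000 bp with a peak in only 1 of the paired libraries numbered 77 for enterocytes and 45 for stem cells in replicate 1, and 91 and 16 in replicate 2. Of these, 52 and 8 in replicate 1, and 83 and 15 in replicate 2, also had no peak in the other group's second library. These counts share the lists that gave the gained and lost regions and are no separate support. The excess of wide gained over wide lost regions rested in part on enterocyte replicate 2: without it, 52 regions of this width were gained and 63 lost. With 1 condition fewer, that lost count could only rise. Without stem-cell replicate 2 the numbers were 100 and 8, and without stem-cell replicate 1 they were 70 and 15. Peaks of at least 4000 bp numbered 199 and 335 in the enterocyte lists and 102 and 209 in the stem-cell lists, so the groups overlapped.

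**Figure D2:**
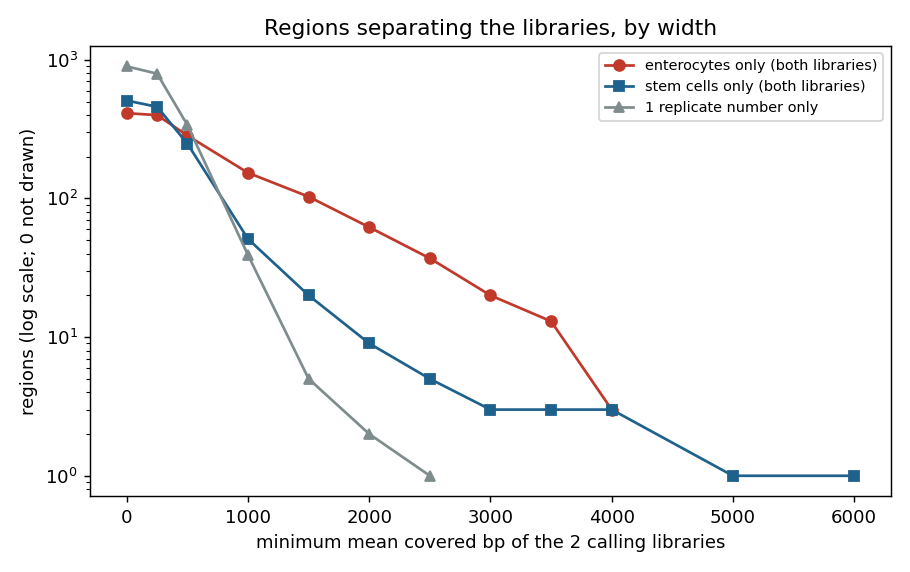
Number of regions (log y axis, values of 0 not drawn) whose mean covered bp in the calling libraries reaches the minimum on the x axis. Red circles are regions called in both enterocyte libraries and neither stem-cell library, blue squares the reverse, and grey triangles regions called in both libraries of 1 replicate number and neither of the other; at 2000 bp they stand at 62, 9 and 2.

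Read from the stem-cell side, the share missing in enterocytes was highest among narrow domains. Regions called only in the libraries numbered 2 were mostly narrow as well, with 555 of 893 under 500 bp and 2 of at least 2000 bp. No share by width was computed for that split. Of 1047 regions under 500 bp called in both stem-cell libraries, 24.83% had no enterocyte peak. The share was 5.91% of 3336 regions from 500 to under 1000 bp, 0.74% of 5690 from 1000 to under 2000 bp, and 0.31% (6 of 1921) from 2000 to under 4000 bp. Among the widest, of at least 4000 bp, it was 2.07%, or 3 regions, 1 of them Olfm4. Read from the enterocyte side, 19.34% of 662 regions under 500 bp, 4.64% of 2824, 1.77% of 5154 and 2.89% (59 of 2039) in the next classes had no stem-cell peak. At 4000 bp or more it was 1.17% (3 of 257), below the stem-cell share of 2.07%. With lists of equal number that order turned, with 6.3% (16 of 254) on the enterocyte side and 2.8% on the stem-cell side. From 2000 to under 4000 bp the shares were then 5.35% and 1.69%. A looser measure asked whether the other group's mean covered less than 0.25 of the width. It was met by 4.8% of the widest stem-cell domains (7 domains) and by 26 of the 257 widest enterocyte domains (10.1%). These shares are descriptions, since libraries of the same group share their sorting gate and input.

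**Figure D3:**
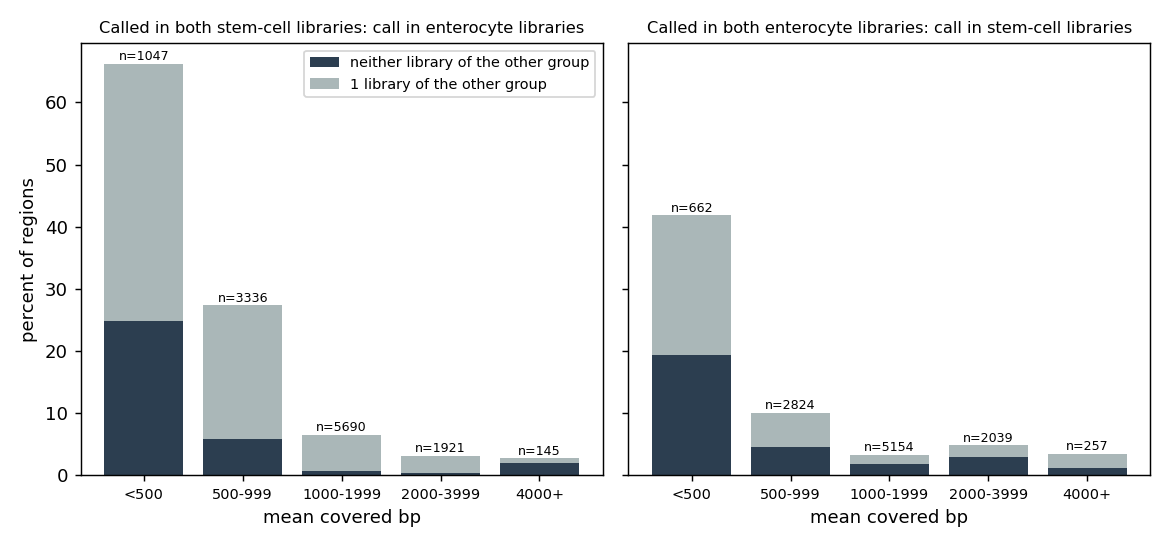
Percent of regions (y axis) called in both libraries of 1 group that had a peak in neither (dark) or in only 1 (light) library of the other group, by mean covered bp in the first group (x axis). The left panel starts from stem cells and the right from enterocytes, with the number of regions above each bar; in the left panel the dark part falls from 24.83% under 500 bp to 0.31% from 2000 to under 4000 bp and stands at 2.07% from 4000 bp.

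The widest gained region was chr17:34680713-34686329, with 5541 and 4278 bp in enterocytes (mean 4909.5 ± 893.1, SD, n = 2) and no peak in stem cells or embryos. The next was chr11:62944231-62949774, with 3178 and 5544 bp, and the E14.5 libraries had 995 and 912 bp there. The Lct region was the third widest, and in replicate 1 it was called as 2 peaks. In all 3 the enterocyte libraries differed in width by over 1000 bp while both stem-cell libraries had none. Other regions were more even between the libraries. At chr11:76289022-76292961 they had 3795 and 3796 bp, at chr2:110437440-110441346 3809 and 3691 bp, and at chr19:34700717-34704804 3608 and 3690 bp. At chr5:53439273-53443624 they had 3519 and 4352 bp, with 140 bp in 1 E14.5 library. The last of the 10 widest were chr11:118849402-118853973 (2952 and 4572 bp), chr18:84847255-84851473 (3276 and 4219 bp) and chr3:96633619-96637467 (3443 and 3849 bp). No stem-cell or E12.5 library had a peak in any of these 10 regions, and 8 of the 10 had none in any embryonic library. The regions were chosen for their width and for the lack of a stem-cell peak, so these values are a description with no test, and no fold change is given against a group at 0.

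The widest lost region after Olfm4 was chr2:103138900-103144514, with 5412 and 4401 bp in stem cells, none in enterocytes, and 670 and 814 bp at E14.5. It was followed by chr1:67158368-67163209, with 4053 and 4753 bp in stem cells and 4553 and 3964 bp at E14.5. These 2 and Olfm4 were the only lost regions with a mean above 4000 bp. Next came chr18:78318141-78321651 (2195 and 3511 bp) and chr9:44911714-44914636 (2827 and 2432 bp, and 1075 and 1540 bp at E14.5). The region chr10:114940206-114942910 had 2654 and 2182 bp in stem cells and 283 and 576 bp at E14.5. It lies 78.8 kb from the region at the Lgr5 start and, by the same general knowledge, within the Lgr5 gene; the locus thus held 2 regions called in both stem-cell and both E14.5 libraries. The region at its start missed the lost class by the 222 bp peak in enterocyte replicate 2. The others of the 10 widest were chr11:100016976-100019668 (1687 and 2693 bp), chr8:48497205-48499492 (2288 and 1974 bp), chr18:45717867-45719966 (2063 and 1951 bp) and chr5:64782814-64785062 (1558 and 2249 bp). Chosen in the same way, these 10 are likewise given without a test. Both chr8:48497205-48499492 and chr18:45717867-45719966 were called in every embryonic library, at 2006 to 2288 bp. Each E14.5 library had a peak at 6 of the 10 regions, and 4 had no embryonic peak.

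**Figure D4:**
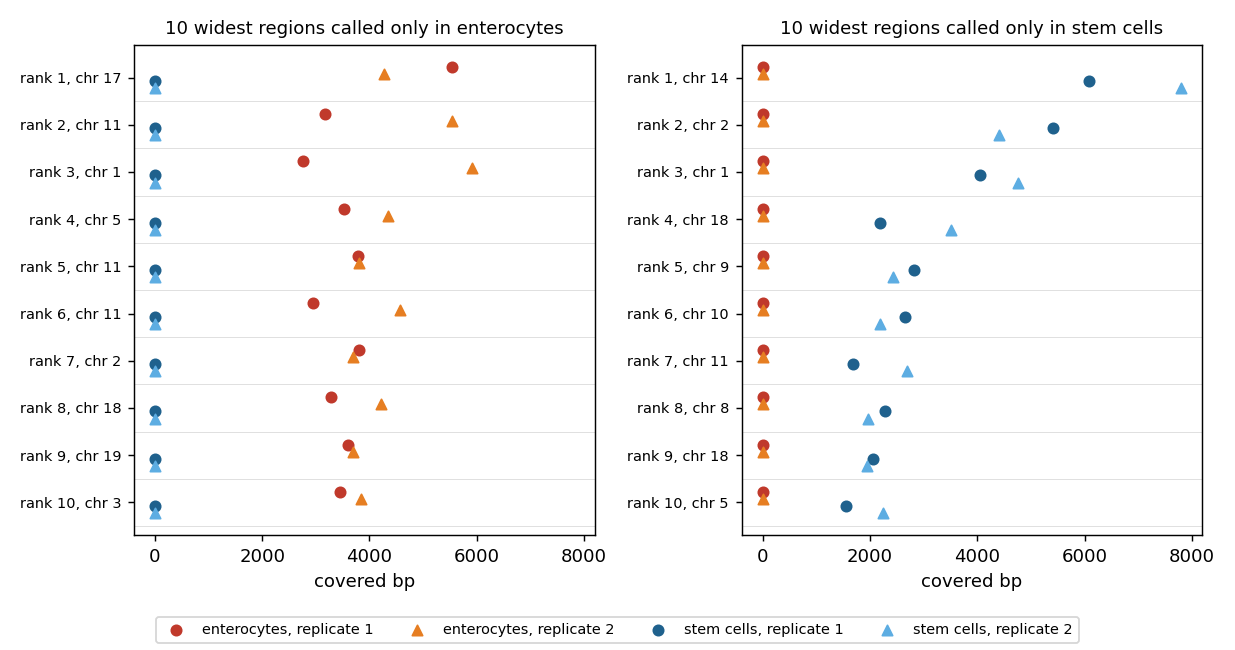
Covered bp (x axis) in each of the 4 adult libraries at the 10 widest regions called only in enterocytes (left) and only in stem cells (right), ordered by mean width. Circles are replicate 1 and triangles replicate 2; the left regions have means from 3646 to 4909.5 bp, and those on the right from 1903.5 to 6941 bp, with Olfm4 at rank 1.

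The embryonic state was then read over the whole classes. Both E14.5 lists held 38 (9.2%) of the 412 gained regions, and 364 (88.3%) had no embryonic peak. Of the 508 lost ones, 362 (71.3%) had a peak in each E14.5 library and 164 (32.3%) in each E12.5 library. For regions called in all 4 adult libraries the shares were 97.7% and 85.8%. Regions called only in the libraries numbered 2 stood between, with 60.8% in both E14.5 libraries. The E12.5 lists were the weaker throughout. Over the regions called in all 4 adult libraries their median covered bp was 864 and 1012, against 1439 and 1464 at E14.5. The median −log10 q of a list was 5.84 and 9.46 at E12.5 and 31.4 and 25.5 at E14.5. A lower or missing E12.5 value therefore cannot be told apart from a weaker list. Among regions of at least 2000 bp, each E14.5 library had a peak at 6 of 62 gained and 6 of 9 lost ones. Of gained regions 17.7% lay within 5 kb of a region called in all 4 libraries, against 7.9% of lost and 10.6% of replicate 2 regions. The share over all other regions was not computed, and gained regions were the wider, so these shares are only a description. By chromosome, gained regions made up from 1.47% (chromosome 8) to 4.08% (chromosome 19, 27 of 662 regions) and lost ones from 1.82% (chromosome 7) to 3.8% (chromosome 14, 26 of 685).

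Some wide domains missed the gained or lost class by a narrow peak in 1 library, and these were picked out after their values were seen. The widest was chr12:112654550-112664518, with 9374 and 9593 bp in enterocytes and 0 and 625 bp in stem cells. Its peaks ranked 2 and 5 by length in the enterocyte lists, and the difference passed with 8 libraries (adjusted p = 0.0076) and not with 4 (0.087). At chr13:73832402-73838345 enterocytes had 5868 and 5612 bp and stem cells 0 and 550 bp (adjusted p = 0.01 and 0.096). No embryonic library had a peak at either region, so both 8-library values are too low, as at Npc1l1. On the stem-cell side, chr10:12264503-12268926 had 3878 and 4424 bp in stem cells and 0 and 579 bp in enterocytes (adjusted p = 0.015 and 0.12). At chr3:144508931-144512608 the values were 2890 and 3678 bp against 0 and 511 bp (adjusted p = 0.017 and 0.12). Of the 5 widest regions of this kind on each side, Npc1l1 among them, 3 and 3 passed with 8 libraries and none with 4. The values that did not pass included chr6:129045594-129050998, with 4679 and 5369 bp in enterocytes and 1135 and 0 bp in stem cells (adjusted p = 0.069). There the small peak was in replicate 1, whereas in the other 9 it was in replicate 2. The other regions that did not pass were chr5:140293953-140299997 (adjusted p = 0.098), chr4:139129944-139134505 (0.19) and chr7:107326602-107330386 (0.079).

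Covered bp was tested with limma on log2(scaled covered bp + 200), over the 13903 regions called in at least 2 of the 4 libraries. With the spread estimated from all 8 libraries of the study, 856 regions (6.16%) were longer in enterocytes and 726 (5.22%) shorter at an adjusted p under 0.05. A group without a peak in either of its libraries adds no spread to this fit. That held for all embryonic libraries at 88.3% of gained and 20.9% of lost regions. It also held at Npc1l1 and at the chr12 and chr13 domains above. Among the shared domains named below, it held at 4 of the 6 longer and 1 of the 6 shorter ones. At such regions the 8-library fit takes a lack of calls for a lack of spread, so its p-values there are too low as a measure of replicate variation. With the 4 adult libraries alone, 109 (0.784%) were longer and 15 (0.108%) shorter. At an unadjusted p under 0.05 the 8-library fit gave 1591 and 1812, and the 4-library fit 1416 and 1167. Of the calls from the adult libraries alone, 100 of 109 and 15 of 15 were also called with 8 libraries. The 8-library fit called 394 of the 412 gained regions and 389 of the 508 lost ones, and the 4-library fit 70 and 12, counts that the choice of these classes by the same values helps to fix. The split between longer and shorter calls changed with the setting, from 54.1% longer with 8 libraries to 87.9% with 4. Without enterocyte replicate 2 it was 31.7%, with 962 longer and 2069 shorter.

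The distribution was narrow over the 10098 shared regions, those with a peak in each of the 4 libraries. The median log2 difference was -0.011, and 82.3% of regions lay within 0.5 of 0. In the 8-library fit 403 (3.99%) were longer and 272 (2.69%) shorter in enterocytes, and the 4-library fit called 39 and 3.

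**Figure D5:**
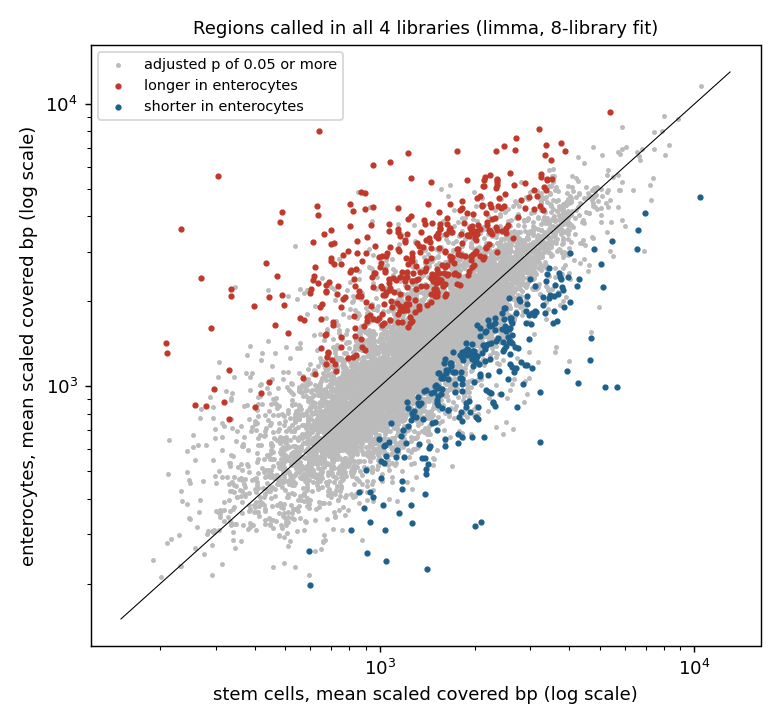
Mean scaled covered bp in enterocytes (y axis, log scale) against stem cells (x axis, log scale) for the 10098 regions called in all 4 adult libraries, with the line of equality. Red points are the 403 regions longer and blue points the 272 shorter in enterocytes at an adjusted p under 0.05 in the 8-library limma fit; grey points did not pass.

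Domains called in all 4 adult libraries but many times longer in enterocytes were led by chr11:99295379-99300979. It covered 5517 and 5532 bp in enterocytes and 174 and 459 bp in stem cells, a log2 difference of 3.55 ± 0.49 (SE, adjusted p = 0.009, and 0.044 with 4 libraries). At chr17:66938458-66947337 enterocytes had 8880 and 6958 bp, ranking 3 and 69 by length, and stem cells 993 and 217 bp, a log2 difference of 3.50 ± 0.55. In both, the narrow stem-cell peak sat where enterocytes had a domain of over 5000 bp. At chr5:87961125-87965490 the values were 3081 and 4174 bp against 174 and 304 bp, a log2 difference of 3.14 ± 0.22. At chr9:65266746-65270902 they were 4157 and 4046 bp against 569 and 389 bp (2.68 ± 0.26). The chromosome 5, 9 and 17 regions just described had no embryonic peak, nor had the region that follows. At chr9:98390738-98395324 enterocytes had 4124 and 4587 bp and stem cells 960 and 237 bp (2.67 ± 0.50). At chr15:75692243-75697159 they had 2948 and 4798 bp against 355 and 629 bp (2.56 ± 0.23). The 6 were chosen among regions that passed the 8-library fit without overlap, and their adjusted p there ran from 0.001 to 0.024. In the 4-library fit it ran from 0.04 to 0.14. The 2 above 0.05 were chr17:66938458-66947337 (0.11) and chr9:98390738-98395324 (0.14). At the 4 domains without an embryonic peak the 8-library values are too low, as stated above.

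The largest shortening among shared domains was at Slc12a2, with a log2 difference of -2.49 ± 0.55 (SE). At chr7:139763008-139768414 stem cells had 5015 and 5407 bp and enterocytes 711 and 1305 bp, a log2 difference of -2.20 ± 0.41. This domain had 5266 and 5396 bp at E14.5 and 309 and 1053 bp at E12.5, unscaled values from lists of unlike strength. At chr11:60622330-60625055 stem cells had 1564 and 2726 bp and enterocytes 265 and 401 bp (-2.10 ± 0.33). At chr1:189485998-189488442 they had 1635 and 2445 bp against 333 and 298 bp (-2.08 ± 0.22), with no embryonic peak. Farther along the chromosome, chr1:189820879-189824426 had 3075 and 3429 bp against 554 and 719 bp (-2.04 ± 0.12). It was the only one of the 6 that also passed with 4 libraries, with adjusted p = 0.00079 and 0.04. At chr6:127097948-127102874 stem cells had 3729 and 4927 bp and enterocytes 478 and 1659 bp (-2.0 ± 0.38). These 6 were also chosen among regions that passed the 8-library fit, where their adjusted p ran from 0.00079 to 0.042. With 4 libraries it ran from 0.04 to 0.15. In the embryo, 5 of the 6 shorter domains had a peak in all 4 embryonic libraries, and none of the 6 longer domains had one in each E12.5 library. At Slc12a2 the E12.5 libraries had 752 and 1864 bp and the E14.5 libraries 3399 and 3013 bp. The E14.5 values lay between those of the adult groups, and the E12.5 values overlapped the enterocyte range. Here too the values are unscaled and the E12.5 lists the weaker. The Slc12a2 difference passed in 6 of 17 alternative settings, the chr6 one in 9 and the chr7 one in 10. Without enterocyte replicate 1, 6 of the 12 domains named here passed.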

How the data were processed

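H3K4me3 ChIP-seq peak lists of single libraries were used, and the 4 inputs entered only as the authors' controls, 1 input for both libraries of a group. Per the submitters' processing notes, Bowtie 1.1.2, SAMtools 1.2, bcl2fastq 1.8.4 and mm9 were used. Per the file headers, the authors called broad peaks with MACS 2.0.10.20130712 and a q cutoff of 0.01. The lowest −log10 q in these lists was 1.01 to 1.09, so weaker peaks are included. Each deposited peak has a position, a length in bp, a pileup signal (fragment coverage), −log10 p and q values, and a fold enrichment ratio over input. Here only positions, lengths and −log10 q were used.

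Covered bp per merged region was scaled to equal medians over regions called in all 4 adult libraries (factors 0.92, 1.079, 0.92 and 1.095). Log2(scaled bp + 200) was fitted with limma 3.58.1 (R 4.3.3), 2-sided, with a trended prior and Benjamini-Hochberg adjustment. A check on simulated data gave every region the same spread and changed only regions called in all 4. It could not show how the test behaves where a group has no peak. The fit held 4 groups and 8 libraries, with 4 residual degrees of freedom. The fit to the adult libraries alone had 2. Named regions are the 10 widest gained and lost by mean covered bp, and the 6 largest differences each way among regions called in all 4 that passed without overlap. The comparison, lists and alternatives were chosen with earlier results of these data known. Without an mm9 annotation the gene lists of other cell types were not used, and promoters were matched by symbol in a RefSeq table.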

Additional observations from a re-analysis of the deposited data

How the results depend on the processing

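Both replicates 2 were the deeper, so leaving out a library changes depth and group balance together. It also drops 1 condition of the gained and lost classes, so their counts over all widths can only rise. Gained regions (412) numbered 156 among peaks with −log10 q of at least 10, 17 where those were set against no peak of any q, 62 from a mean of 2000 bp, and 438 to 3493 with a library left out (3493 without enterocyte 1, 812 without stem-cell 2). Lost regions (508) numbered 42, 2, 9 and 542 to 2070 (2007 without enterocyte 2, 2070 without stem-cell 1, 904 without stem-cell 2). The replicate split (896) was 166 with lists cut to equal number, 2151 at −log10 q of at least 10, and 2 from 2000 bp. With equal numbers, 124 regions of at least 2000 bp were gained and 36 lost. With a library left out these were 52 to 100 (100 without stem-cell 2) and 8 to 63 (63 without enterocyte 2, 15 without stem-cell 1), and the wide split (2) was 369 at −log10 q of at least 10.

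Longer and shorter regions (856 and 726) were 317 and 182 when only regions called in all 4 were tested, 109 and 15 with the adult libraries alone, and 497 to 962 and 328 to 2069 with a library left out (503 and 330 without E14.5 replicate 1, 497 and 328 without E14.5 replicate 2, 2069 shorter without enterocyte 2). Of the 12 named shared domains, 5 passed with the adult libraries and 6 to 10 with a library left out (6 without enterocyte 1). The share of stem-cell regions missing in enterocytes was 1.69% from 2000 to under 4000 bp and 10.16% from 500 to under 1000 bp with equal numbers, against 0.31% and 5.91%. Causes were not tested. The numbers give only 2 pairs. Replicate differences correlated at 0.394 between enterocytes and stem cells across regions, and at -0.006 to 0.19 between the other pairs of groups. With a replicate block, 804 were longer and 681 shorter. That block set the same replicate effect for all groups, although at E14.5 replicate 1 was the deeper (43259380 against 22718162 tags). The alternatives that filter by width, set −log10 q of at least 10 against no peak of any q, pair within a number or count wide regions were chosen after seeing the data. None of the log2 differences of the 14 regions recomputed under these alternatives changed sign. Of these regions, 12 had been picked for large differences without overlap between the groups, which largely fixed that outcome.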
